A study of Mus musculus with 4 samples.

Results

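Epithelial and mesenchymal adhesion genes were examined in E14 cells, a mouse embryonic stem (ES) cell line, with and without Npac. The group holds 10 genes, chosen by name out of 56748 genes listed: Cdh1 and Cdh2 (E- and N-cadherin), Epcam, the claudins Cldn6 and Cldn7, Vim (vimentin), and the transcription factor genes Snai1, Snai2, Zeb1 and Zeb2. RNA-seq was available for 2 libraries of WT cells (WT1 and WT2) and for 2 Npac KO lines with 1 library apiece (KO1 and KO2). The lines had been made with CRISPR/Cas9 and picked as colonies after puromycin selection. WT and KO cells shared the E14 background and feeder-free culture on gelatin with serum and leukemia inhibitory factor. The study treats KO1 and KO2 as separate lines, so the spread within the KO genotype includes differences between lines. The labels do not say whether the WT libraries came from separate cultures, so the spread of the WT pair may be technical.

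Cadherins join neighbouring cells through their outer domains and bind catenins inside the cell, and claudins seal tight junctions. In an epithelial-mesenchymal transition, cells lose E-cadherin and tight junctions and take on N-cadherin and vimentin, and the proteins of the Snai and Zeb genes are known to repress E-cadherin through E-box motifs in DNA. Mouse ES cells are epithelial in character, with E-cadherin holding their compact colonies together.

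Between 15850805 and 16965120 reads were counted per library, and 18157 genes, including all 10 adhesion genes, passed the filter on low counts. Levels are given as TMM-normalized CPM, which serve to compare 1 gene between libraries, and as FPKM, which also takes gene length into account and serves to compare genes. Genes are termed up- or down-regulated, or called, where edgeR's quasi-likelihood test across all 18157 genes gave a fold change over 1.5 together with an adjusted p under 0.05 (Benjamini-Hochberg). Glyr1, the gene of Npac, was read 3961 and 3115 times in WT cells and 744 and 888 times in Npac KO cells. Genes of chromosomes 8 and 11, which carry Cdh1 and Cldn7, stood higher as a group in both KO libraries: relative to all genes, their median log2 difference from WT lay between 0.48 and 0.52, against -0.20 to -0.0041 for the other autosomes. In bulk RNA, fewer cells with a transcript and less of it per cell cannot be told apart.

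Of the 10 genes, Cdh1, Epcam and Cldn6 were up-regulated in Npac KO cells and Zeb1 was down-regulated. These 3 of 10 called up stand beside 11% of all tested genes called up, and the 1 of 10 called down beside 10.7%; in either direction 21.7% of all tested genes were called. With the medians of the chromosomes removed, 2 of the 10 were called up, beside 9.33% of all tested genes, and 1 was called down, beside 9.8%. Both KO libraries lay above both WT libraries in 4 of the genes, where this held for 33.2% of all tested genes, and below them in 2, against 32.5%. The median log2 fold change of the 10 genes was 0.33, with 5 positive and 5 negative values, and that of all tested genes was 0.0015. Without the KO1 library, Cldn6 was the 1 gene still called.

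**Figure D1:**
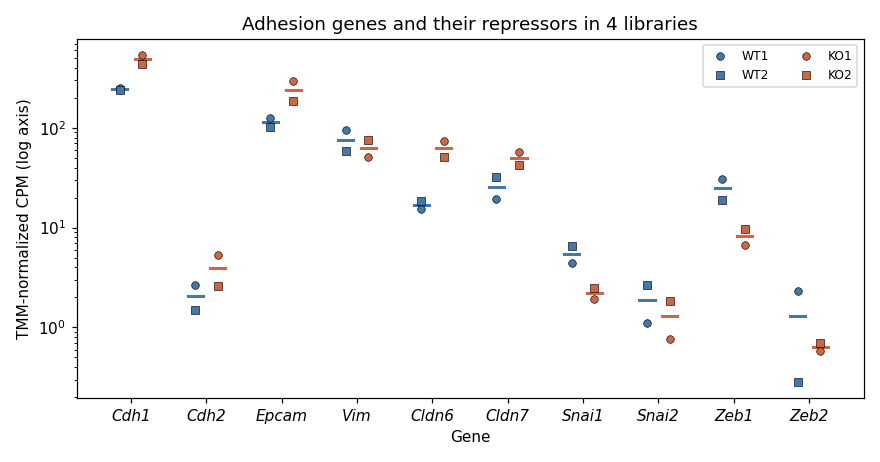
TMM-normalized CPM (log axis) of the 10 genes in each library, with circles for replicate 1, squares for replicate 2 and bars for the mean of 2 libraries. Both KO points lie above both WT points for Cdh1, Epcam, Cldn6 and Cldn7 and below them for Snai1 and Zeb1, and the groups overlap for Cdh2, Vim, Snai2 and Zeb2.

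Cdh1 (ENSMUSG00000000303), on chromosome 8 from 107329983 to 107396878 on the plus strand in the deposited tables, was read far more often than Cdh2. Its level was 248 and 238 CPM in WT1 and WT2 and 536 and 439 CPM in KO1 and KO2, from 3793 to 8327 reads. The WT libraries lay close together, and both KO libraries were well above them. The mean rose from 243 ± 7.17 to 488 ± 68.1 CPM (SD, n = 2 each), a log2 fold change of 1.00 (standard error 0.19, edgeR adjusted p = 0.0115). Of 979 tested genes on chromosome 8, 26.1% were called up, and the log2 fold change of Cdh1 was higher than that of 73.3% of them. After the chromosome's median was taken out of both KO libraries, the log2 fold change was 0.49 (edgeR adjusted p = 0.107), and without the KO1 library it was 0.84 (edgeR adjusted p = 0.104), so that Cdh1 was not called in either case.

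Tango6, the nearest tested gene at 12822 bases from Cdh1, was read 755 and 711 times in WT1 and WT2 and 1029 and 1067 times in KO1 and KO2. Its log2 fold change was 0.50 (standard error 0.19, edgeR adjusted p = 0.0982), which became -0.0070 after the chromosome's median was taken out, and it was called without WT1 (0.62, edgeR adjusted p = 0.0127). Cdh3, which encodes P-cadherin and lies on the same chromosome from 107237523 to 107283929, had 292 and 419 reads in WT cells and 1101 and 1004 reads in Npac KO cells. Its log2 fold change was 1.58 (standard error 0.22, edgeR adjusted p = 0.00434), and it was still called, at 1.07 (edgeR adjusted p = 0.0166), after the median of the chromosome was removed.

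Cdh2 (ENSMUSG00000024304, chromosome 18) was hardly transcribed in either genotype, with 41 and 26 reads in WT1 and WT2 and 83 and 45 reads in KO1 and KO2. This gave 2.68 and 1.49 CPM in WT cells and 5.34 and 2.60 CPM in Npac KO cells, and the groups overlapped. The log2 fold change was 0.93 with a 95% confidence interval from -0.32 to 2.18 (edgeR adjusted p = 0.247), so at this depth neither a rise nor a small fall could be told from no change. Per length, Cdh1 had 163 and 282 times the reads of Cdh2 in WT1 and WT2 and 177 and 298 times in KO1 and KO2. The log2 ratio of the cadherins was 7.75 ± 0.56 in WT cells and 7.84 ± 0.53 in Npac KO cells (SD, n = 2 each), a difference of 0.0977 that was smaller than the spread within either genotype (two-sided exact permutation test, p = 0.667). Its sign turned when WT1 or KO2 was left out, to -0.30 and -0.28, and when the medians of the chromosomes were removed, to -0.52.

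Epcam (ENSMUSG00000045394), which encodes a surface glycoprotein of epithelial and ES cells, lies on chromosome 17 from 87943407 to 87958557. It had 126 and 102 CPM in WT1 and WT2 and 297 and 188 CPM in KO1 and KO2. The WT libraries were again close, and the KO libraries were higher but differed from each other by 0.66 on the log2 scale. The mean rose from 114 ± 17.4 to 243 ± 77.4 CPM (SD, n = 2 each), a log2 fold change of 1.09 (standard error 0.25, edgeR adjusted p = 0.0223). Without the KO1 library it was 0.71 (edgeR adjusted p = 0.203) and Epcam was not called. No other gene of the tables lay within 20 kb of Epcam.

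Cldn6 (ENSMUSG00000023906), a claudin of early embryonic epithelia on chromosome 17 from 23898223 to 23901420, had the largest fold change of the 10 genes. It was counted 234 and 322 times in WT1 and WT2 and 1143 and 889 times in KO1 and KO2. Every KO library was above every WT library by a wide margin. The mean rose 3.70-fold from 16.9 ± 2.20 to 62.5 ± 15.7 CPM (SD, n = 2 each), a log2 fold change of 1.89 (standard error 0.25, edgeR adjusted p = 0.00351). Cldn6 was called under all 14 alternatives tried, with log2 fold changes between 1.60 and 2.14 and adjusted p between 1.18e-11 and 0.00607.

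Cldn7 (ENSMUSG00000018569), which encodes a claudin that binds EpCAM, lies on chromosome 11 from 69855605 to 69858711. Its level was 19.2 and 32.4 CPM in WT1 and WT2 and 57.1 and 42.9 CPM in KO1 and KO2. The KO libraries were both above the WT libraries, but the WT libraries differed by 0.75 on the log2 scale. The log2 fold change was 0.95 (standard error 0.29, 95% confidence interval 0.28 to 1.62, edgeR adjusted p = 0.0518), just short of the threshold. It was 0.46 (edgeR adjusted p = 0.295) with the median of chromosome 11 removed, and it was called in 5 of 14 alternatives: at 0.60 and 1.38 without WT1 and without WT2, by DESeq2 (adjusted p = 0.0204), with no count filter (edgeR adjusted p = 0.00155) and with the replicate block (edgeR adjusted p = 0.00667). Of the 1455 tested genes of the chromosome, 26.7% were called up. Among its tested neighbours within 20 kb, Elp5, which lies 337 bases away on the other strand, had a log2 fold change of 0.56 (edgeR adjusted p = 0.0798), and it was called without WT2 (0.74, edgeR adjusted p = 0.00120). Ctdnep1, 13271 bases away, was at -0.28 (edgeR adjusted p = 0.363), or at -0.77 and called (edgeR adjusted p = 0.0376) after the chromosome's median was taken out. The miRNA gene ENSMUSG00002075075, 12807 bases away, was at -0.48 (edgeR adjusted p = 0.533). Slc2a4, 16591 bases away, fell by 1.43 on the log2 scale (edgeR adjusted p = 0.0163), a call that ended without KO1 (-1.27, edgeR adjusted p = 0.119) and without KO2 (-1.61, edgeR adjusted p = 0.0522).

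Per length, Cldn6 and Cldn7 changed places. Cldn6 had 0.904 and 0.644 times the reads per length of Cldn7 in WT1 and WT2 and 1.46 and 1.36 times in KO1 and KO2. Every KO library was thus above 1 and every WT library below it. The log2 ratio went from -0.39 ± 0.35 to 0.49 ± 0.0743 (SD, n = 2 each), a difference of 0.88, and the two-sided exact permutation test gave p = 0.333, the smallest that 2 against 2 libraries allow. With the medians of the chromosomes removed the difference was 1.48.

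**Figure D2:**
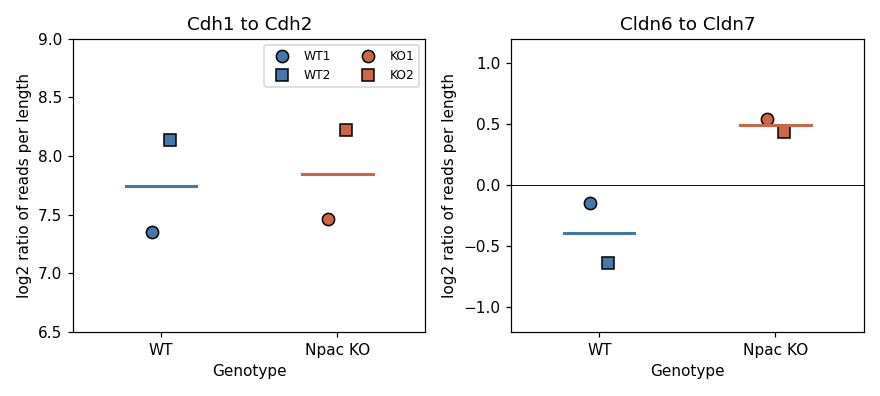
Log2 ratio of reads per gene length for Cdh1 to Cdh2 (left) and Cldn6 to Cldn7 (right) in each library; circles are replicate 1, squares are replicate 2 and bars are means of 2 libraries. The cadherin ratio overlaps between genotypes, between 7.35 and 8.22, while the claudin ratio lies below 0 in both WT libraries and above 0 in both KO libraries.

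Windows around the transcription starts of Epcam, Cldn6 and Cldn7, the epithelial genes of the group with a window in the table, are shown because E-boxes of the letters CACCTG, or CAGGTG on the other strand, are the motif that Snai and Zeb proteins are known to bind. RefSeq windows on GRCm38.p6 ran from 250 bases before to 50 bases after each start. The search covered 6 of the 10 genes, with 10 windows in all, as some genes have several starts. Windows of Cdh1, Cdh2, Snai2 and Zeb1 were not searched, so nothing is said here of matches near these genes. The matches are printed in capitals, 5′ to 3′ on the strand of the gene. The Epcam window is chr17:87635729-87636028, that of Cldn6 is chr17:23679115-23679414 and that of the second Cldn7 start is chr11:69965171-69965470, all on the plus strand.
Epcam: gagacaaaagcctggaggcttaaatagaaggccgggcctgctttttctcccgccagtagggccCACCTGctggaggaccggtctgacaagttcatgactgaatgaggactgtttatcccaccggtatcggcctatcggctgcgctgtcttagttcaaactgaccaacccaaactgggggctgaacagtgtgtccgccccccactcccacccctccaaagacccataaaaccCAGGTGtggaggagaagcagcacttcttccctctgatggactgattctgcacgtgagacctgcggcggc
Cldn6: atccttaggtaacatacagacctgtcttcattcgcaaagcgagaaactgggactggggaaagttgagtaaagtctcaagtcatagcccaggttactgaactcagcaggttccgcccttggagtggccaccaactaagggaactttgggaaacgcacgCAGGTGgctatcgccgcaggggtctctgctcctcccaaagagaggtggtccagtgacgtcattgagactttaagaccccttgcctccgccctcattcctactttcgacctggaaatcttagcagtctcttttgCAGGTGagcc
Cldn7: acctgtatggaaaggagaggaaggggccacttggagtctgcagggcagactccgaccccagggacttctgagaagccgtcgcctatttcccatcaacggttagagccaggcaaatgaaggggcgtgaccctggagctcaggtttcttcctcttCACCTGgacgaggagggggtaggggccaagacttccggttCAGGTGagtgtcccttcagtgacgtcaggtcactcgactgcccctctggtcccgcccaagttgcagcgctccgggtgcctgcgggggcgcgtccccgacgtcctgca
Each of these 3 windows held 2 matches. In Epcam they began 187 and 19 bases before the start, in Cldn6 93 bases before it and at base 41 after it, and in Cldn7 97 and 57 bases before it. The other Cldn7 window, the Vim window and the 4 Zeb2 windows held none, and the Snai1 window held 1. Of all 32851 windows in the table, 20.2% held at least 1 match and 2.88% held at least 2. A match describes letters in the window and was not measured as binding.

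Vim (ENSMUSG00000026728, chromosome 2), the gene of the intermediate filament protein of mesenchymal cells, was transcribed at a moderate level in both genotypes. It had 94.6 and 58.2 CPM in WT1 and WT2 and 51.3 and 75.5 CPM in KO1 and KO2. The highest and the lowest library were thus a WT and a KO library, with the other two between them. The log2 fold change was -0.27 with a 95% confidence interval from -0.93 to 0.39 (edgeR adjusted p = 0.533), and without the WT1 library it was 0.0962.

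Zeb1 (ENSMUSG00000024238, chromosome 18), which encodes a zinc finger and homeodomain repressor of epithelial genes, was counted 470 and 330 times in WT1 and WT2 and 105 and 167 times in KO1 and KO2. Both KO libraries lay below both WT libraries. The mean fell to 33.0% of the WT level, from 24.8 ± 8.41 to 8.20 ± 2.05 CPM (SD, n = 2 each), and its log2 fold change was -1.59 (standard error 0.33, edgeR adjusted p = 0.0156). Without the KO1 library the log2 fold change was -1.37 (edgeR adjusted p = 0.0643) and Zeb1 was not called. Gm10125, a noncoding RNA gene on the opposite strand within the span of Zeb1, had 12 and 21 reads in WT cells and 1 and 4 reads in Npac KO cells (log2 fold change -2.66, edgeR adjusted p = 0.0419), a call lost in 7 of 12 alternatives, among them DESeq2 (adjusted p = 0.153) and leaving out WT2, KO1 or KO2. These 2 genes were counted separately, but the strand setting of the counting is not given in the sources used here. Whether either count holds reads from the strand of the other gene is therefore not known.

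Snai1 (ENSMUSG00000042821, chromosome 2), the gene of the Snail repressor, had 68 and 114 reads in WT1 and WT2 and 30 and 43 reads in KO1 and KO2. The KO libraries were both below the WT libraries, at 1.93 and 2.48 CPM against 4.45 and 6.52 CPM. The log2 fold change was -1.31 (standard error 0.43, 95% confidence interval -2.30 to -0.32), and it missed the threshold at an adjusted p of 0.0636 in edgeR. Without the WT1 library it was -1.59 (edgeR adjusted p = 0.00625), and Snai1 was called, as it was with no count filter (edgeR adjusted p = 0.0353), with the replicate block (edgeR adjusted p = 0.0179) and on both log2 FPKM scales.

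Snai2 and Zeb2, the genes of Slug and of the second Zeb repressor, had at most 47 reads in any library and were not called. Snai2 (ENSMUSG00000022676, chromosome 16) had 17 and 47 reads in WT1 and WT2 and 12 and 32 reads in KO1 and KO2. The libraries of each genotype differed from each other by more than the genotypes did, and the log2 fold change of -0.53 had a 95% confidence interval from -2.04 to 0.97 (edgeR adjusted p = 0.588). Zeb2 (ENSMUSG00000026872, chromosome 2) had 35 and 5 reads in WT1 and WT2 and 9 and 12 reads in KO1 and KO2. A single WT library was the highest and the other the lowest, and the log2 fold change of -0.99 had an interval from -3.04 to 1.06 (edgeR adjusted p = 0.454). Leaving out 1 WT library turned either sign: Snai2 was at 0.24 without WT2 and Zeb2 at 1.11 without WT1. Without WT2, Zeb2 was called down at -1.84 (edgeR adjusted p = 0.0303).

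**Figure D3:**
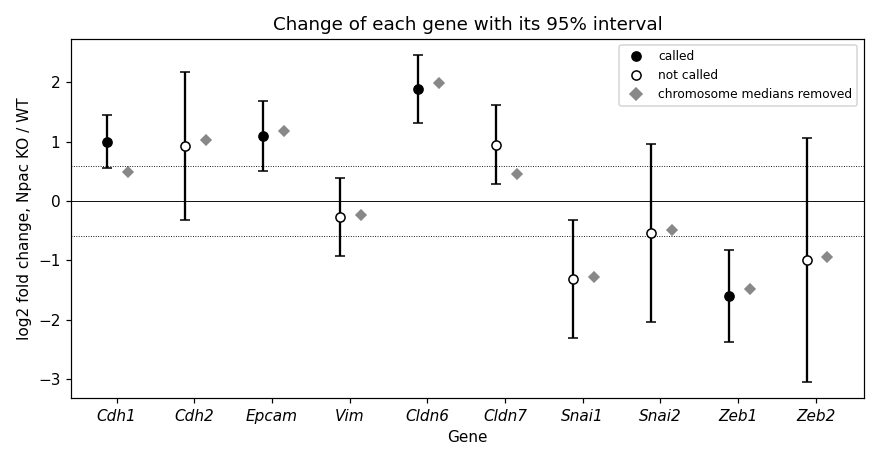
Log2 fold change of Npac KO over WT for the 10 genes, with 95% confidence intervals from edgeR (filled points are called, open points are not) and, as diamonds, the value after chromosome medians were removed. Dotted lines mark a fold change of 1.5, and the diamonds of Cdh1 and Cldn7, on chromosomes 8 and 11, drop to 0.49 and 0.46 while those of Epcam and Cldn6 stay above 1.

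By FPKM, the order of the genes was led in WT cells by Cdh1 at 52.8 ± 1.62 and Epcam at 51.5 ± 7.93, whose libraries overlapped (SD, n = 2 each). Vim at 16.0 ± 5.41, Cldn7 at 13.1 ± 4.74 and Cldn6 at 9.73 ± 1.25 followed, and neighbours in this order also overlapped. Below them stood Snai1 at 3.36 ± 0.89 and Zeb1 at 2.40 ± 0.82, again overlapping, and then, each clear of the next, Snai2, Cdh2 and Zeb2 between 0.933 and 0.0634 FPKM. In Npac KO cells Epcam and Cdh1 shared the top at 109 ± 36.0 and 106 ± 15.8 FPKM, and Cldn6 at 35.9 ± 9.38 and Cldn7 at 25.4 ± 5.36 now stood above Vim at 13.2 ± 3.44, each clear of the next. Snai1 at 1.35 ± 0.23 FPKM was clear of Zeb1, while the libraries of Zeb1, Snai2 and Cdh2 overlapped between neighbours.

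Each KO line was also set against the WT libraries alone, where the line has 1 library and the spread comes from the WT pair. For KO1 the log2 fold changes were 1.14 for Cdh1, 1.38 for Epcam, 2.12 for Cldn6 and -1.88 for Zeb1. For KO2 they were 0.85 for Cdh1, 0.72 for Epcam, 1.60 for Cldn6 and -1.36 for Zeb1. The genes were called on both lines together, which fixed the common sign, and the values for the KO1 library were the larger in size for each of them. Of the 10 genes, 3 were called up in KO1, beside 3.83% of all tested genes, and 1, Cldn6, in KO2, beside 3.1%, while 0 were called down in either, where 3.34% and 2.34% of all tested genes were. At an unadjusted edgeR p under 0.05, 1 gene, Zeb1, was lower in each line, and DESeq2 called Zeb1, 1 of the 10 genes, down in KO1 and 0 of them in KO2. The comparisons share their WT libraries.

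Among genes of adherens junctions, which include partners of E-cadherin, most log2 fold changes were negative. There were 9 negative and 2 positive values, against 9067 negative and 9090 positive values over all tested genes. The counts of called genes for this list and those that follow stand beside 11% of all tested genes called up and 10.7% called down. Of 12 listed genes 11 were tested, 1 was up-regulated (Cdh3), 3 were down-regulated, and the median log2 fold change was -0.16 against 0.0015 over all genes. Ctnnb1, which encodes beta-catenin, had 18430 and 18300 reads in WT cells and 9286 and 8595 reads in Npac KO cells, a log2 fold change of -1.04 (standard error 0.20, edgeR adjusted p = 0.0120). Ctnna1, the gene of the alpha-catenin that links cadherins to actin, had a log2 fold change of -0.87 (edgeR adjusted p = 0.0273). Nectin1, which encodes an immunoglobulin-type adhesion molecule, fell by 1.34 on the log2 scale (edgeR adjusted p = 0.0114). Ctnnd1, whose p120 product stabilises E-cadherin, was at 0.20 (edgeR adjusted p = 0.489). Leaving out a KO library ended the call of each of the 3 falling genes, for Ctnna1 without KO1 (-1.04, edgeR adjusted p = 0.0512) and without KO2 (-0.70), for Ctnnb1 without KO2 (-0.90, edgeR adjusted p = 0.0909) and for Nectin1 without KO1 (-1.06, edgeR adjusted p = 0.0840).

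Among other tight junction genes, 4 of 16 tested were up-regulated and 0 were down-regulated (17 genes were listed), with a median log2 fold change of 0.22. Without KO1 the number called up was 1, without KO2 it was 2, and without WT2 it was 6, with 1 called down. In the same edgeR test 1 gene, Pard6b, was lower at an unadjusted p under 0.05, and DESeq2 also called 0 of these genes down. Cldn5, an endothelial claudin, had 5 and 18 reads in WT cells and 94 and 111 in Npac KO cells, a log2 fold change of 3.16 (standard error 0.57, edgeR adjusted p = 0.0100) that was 2.56 without WT1 and 4.21 without WT2. Marveld2, the gene of tricellulin, had 39 and 83 reads against 236 and 199, a log2 fold change of 1.86 (edgeR adjusted p = 0.0171). Marveld3, on chromosome 8, was at 1.31 (edgeR adjusted p = 0.0375) and at 0.80 (edgeR adjusted p = 0.152) less the median of its chromosome. Without the KO1 library Marveld2 at 1.64 (edgeR adjusted p = 0.0861) and Marveld3 at 1.34 were not called, nor was Marveld3 at 1.28 without KO2. The fourth gene called up, the cingulin gene Cgn, was at 0.80 (edgeR adjusted p = 0.0239) and was not called without KO1 (edgeR adjusted p = 0.179) or KO2 (edgeR adjusted p = 0.159). The scaffold gene Tjp1 and the occludin gene Ocln were not called, with log2 fold changes of -0.20 and 0.12, and Tjp1 was at 0.10 without WT1.

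Desmosome and keratin genes split, with 2 up-regulated and 2 down-regulated of 10, and a median of -0.18. Pkp2, which encodes plakophilin 2, rose 2.85-fold from 27.4 ± 1.66 to 78.1 ± 17.9 CPM (SD, n = 2 each), a log2 fold change of 1.51 (edgeR adjusted p = 0.00513). Krt18, the gene of a simple-epithelium keratin, was at 1.05 (edgeR adjusted p = 0.0370). The desmoplakin gene Dsp fell by 1.17 on the log2 scale (edgeR adjusted p = 0.0179) and the desmocollin gene Dsc2 by 1.43 (edgeR adjusted p = 0.0337). Krt18 was not called without KO1 (1.08) or without KO2 (1.04), nor was Dsc2 (-1.16 and -1.76), and Dsp was not called without KO2 (-0.97).

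Regulators of epithelial identity included the widest fall in these lists. Klf5, a Kruppel-like factor gene of ES cells and epithelia, had 23699 and 13460 reads in WT1 and WT2 and 1559 and 2042 reads in KO1 and KO2. Its mean fell to 9.40% of the WT level, and its log2 fold change was -3.41 (standard error 0.35, edgeR adjusted p = 0.00142). Esrp1, which encodes an epithelial splicing regulator, had 330 and 294 reads against 1274 and 868, a log2 fold change of 1.78 (standard error 0.28, edgeR adjusted p = 0.00643). Ovol2, the gene of a zinc finger factor known to repress Zeb1, was at 1.34 (edgeR adjusted p = 0.0435), a call that ended without KO1 (1.25), without KO2 (1.44) and among protein-coding genes alone (edgeR adjusted p = 0.0514). Of 13 listed genes 12 were tested, 2 were up-regulated and 1 was down-regulated, and the median was 0.17.

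Of 15 mesenchymal genes 11 were tested, with 2 up-regulated, 2 down-regulated and a median of 0.39. Log2 fold changes were positive in 9 and negative in 2. Both KO libraries lay above both WT libraries in 5 and below them in 2, beside 33.2% and 32.5% of all tested genes. Cd44 was not called at 2.69 (edgeR adjusted p = 0.0599), from 1 and 16 reads in WT cells and 36 and 74 reads in Npac KO cells. Cnn1, the gene of a calponin of smooth muscle, had 19 and 32 reads in WT cells and 126 and 119 reads in Npac KO cells (log2 fold change 2.27, edgeR adjusted p = 0.0106; without KO1, 2.14 and 0.0518). Sparc, a matrix protein gene on chromosome 11, was at 0.66 (edgeR adjusted p = 0.0343) and at 0.16 (edgeR adjusted p = 0.541) less the median of its chromosome, and it was not called without KO1 (0.61) or KO2 (0.71). Ncam1, the gene of the neural cell adhesion molecule, fell from 49.0 ± 9.02 to 5.32 ± 1.88 CPM (SD, n = 2 each; log2 fold change -3.20, edgeR adjusted p = 0.00117), and the caldesmon gene Cald1 was at -0.66 (edgeR adjusted p = 0.0444), a call lost in 6 of 14 alternatives, with values between -0.78 and -0.54. The fibronectin gene Fn1 was at 0.56 (edgeR adjusted p = 0.296) and was called without WT1 (1.21, edgeR adjusted p = 0.000497) and with the replicate block (0.65, edgeR adjusted p = 0.0355), and S100a4, Acta2 and Tagln had at most 9 reads in any library. Among 8 fibroblast markers, Col3a1 and Dcn were at 0 in all libraries, Lum and Postn had at most 1 read, and the summed level was 41.1 to 76.2 CPM in WT cells and 49.9 to 60.0 CPM in Npac KO cells. Col1a1, on chromosome 11, was called up at 1.29 (edgeR adjusted p = 0.0308), and at 0.79 (edgeR adjusted p = 0.130) less the median of its chromosome, and it was not called without KO1 (1.30) or KO2 (1.29).

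Other factors tied to the transition gave 2 up-regulated and 1 down-regulated genes among 8 tested of 10, with a median of 0.26. Snai3, the third Snail family gene, had 17 and 111 reads in WT1 and WT2 and 247 and 335 reads in KO1 and KO2 (log2 fold change 2.22, edgeR adjusted p = 0.0464). It lies on chromosome 8, was at 1.71 (edgeR adjusted p = 0.102) less the median of its chromosome, and was not called without KO2 (2.10), with upper-quartile factors (edgeR adjusted p = 0.0526) or among protein-coding genes alone (edgeR adjusted p = 0.0516). Leaving out WT1 put it at 1.44 and leaving out WT2 at 3.97. Id2 fell by 1.68 on the log2 scale (edgeR adjusted p = 0.00882) and Id3 was at 1.23 (edgeR adjusted p = 0.0167; without KO2, 1.14 and 0.0874), and both encode inhibitors of basic helix-loop-helix factors. Twist1, a mesoderm factor gene, was at 0.50 (edgeR adjusted p = 0.455) and was called without WT2 (1.17, edgeR adjusted p = 0.0214), and Twist2 and Prrx1 had at most 5 reads in any library.

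**Figure D4:**
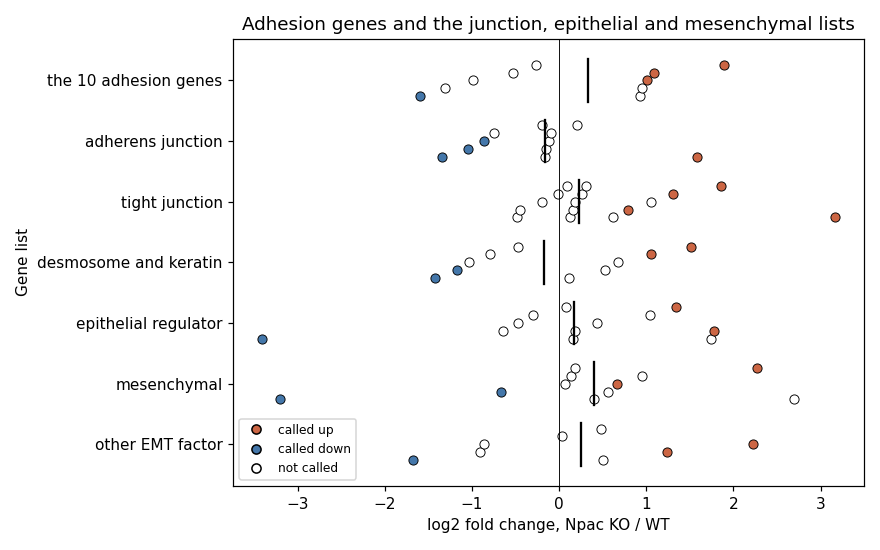
Log2 fold change of Npac KO over WT for every tested gene of the 10 adhesion genes and of 6 further lists; each point is a gene (vertical placement within a row has no meaning), filled where called, and the vertical bars are medians. The tight junction row holds 4 genes called up and 0 called down, while Klf5 at -3.41 and Ncam1 at -3.20 lie farthest to the left.

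Over the 4 libraries, the profiles of centred log2 CPM were compared between the 10 genes and the tested genes of the 6 lists, with the Euclidean distance as the measure of likeness among 77 genes. Nearest to Cdh1 were Epcam (0.33), Cgn (0.37) and Sparc (0.37), and nearest to Epcam were Cldn3 (0.16), Esrp2 (0.29) and Cdh1 (0.33). Nearest to Vim were Cldn12 (0.44), Tjp1 (0.52) and Plekha7 (0.62). With 4 libraries these distances are a description of the profiles only.

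The ES cell label was checked on 10 markers, of which all were read in all libraries. Their summed level was 5858 to 7170 CPM in WT cells and 4867 to 5151 CPM in Npac KO cells. Both KO libraries lay below both WT libraries in 5 of the 10, Pou5f1, Sox2, Zfp42, Esrrb and Tdgf1, beside 32.5% of all tested genes. In 3 they lay above, Dppa5a, Alpl and Utf1, beside 33.2%. Of the 10, 1 was called up and 1 was called down, beside 11% and 10.7% of all tested genes. The gene called down was Zfp42, which encodes Rex1, from 821 ± 175 to 132 ± 3.54 CPM (SD, n = 2 each; log2 fold change -2.64, edgeR adjusted p = 0.000704). Alpl, the alkaline phosphatase gene, rose from 113 ± 2.54 to 245 ± 19.9 CPM (SD, n = 2 each; log2 fold change 1.11, edgeR adjusted p = 0.00659). The part of these markers in the changes of the adhesion genes was not tested.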

How the data were processed

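RNA-seq reads of 4 E14 libraries were mapped by the authors with HISAT and deposited as raw read counts per gene, without normalization, and as FPKM values per kilobase of gene length. The submitters' processing notes name HISAT2 2.0.5, featureCounts 1.5.0-p3 and mm10, while the study's methods give another HISAT version. The gene coordinates printed are those of the deposited tables, which are not on that build: of 52125 gene IDs also in GENCODE M21 (GRCm38), 2.95% had the same start there.

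Genotypes were compared on the counts by edgeR 4.0.16 under R 4.3.3 (filterByExpr, TMM and the quasi-likelihood test on genotype alone, as the study's methods name edgeR and these thresholds), with limma 3.58.1 and DESeq2 1.42.0 as alternatives. Standard errors are the log2 fold change divided by the root of the F statistic, 95% intervals use its degrees of freedom, and adjusted p-values are by Benjamini-Hochberg over all tested genes. The fit was also run on simulated counts as a check of the code, which does not bear on the calls given here. Depth was 15850805 to 16965120 reads per library, and the common biological coefficient of variation was 0.235. RefSeq promoter windows were searched for CACCTG and CAGGTG.

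The 10 genes and the lists were chosen with earlier results of these data known. Named besides them are up to 3 rising and 3 falling called genes per list, tested neighbours within 20 kb of Cdh1, Epcam and Cldn7, tested genes overlapping any of the 10, and nearest profiles; other genes were chosen after their values were seen. Alternatives covered the tool, normalization, count filter, replicate block, FPKM scale (pseudocounts 1 and 0.1), protein-coding genes, chromosome medians and each library left out. Splicing, proteins and reads were not analysed here.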

Additional observations from a re-analysis of the deposited data

How the results depend on the processing

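For 49 genes, 693 values were recomputed, and most were compared with the main result. Some had chromosome medians taken from protein-coding genes of at least 100 mean reads. These were compared with the first chromosome-median values instead, and all counted as kept. Among them, Cdh1 at 0.49 was not called and Tango6 was at -0.0106, unlike in the main result. Counted in this way, 620 values kept their direction and their side of the thresholds. Against the main result alone, fewer did. Of the rest, 51 kept the direction and were no longer called, 17 became called and 5 turned direction. Those 5, not called there, were Vim at 0.0962, Zeb2 at 1.11 and Tjp1 at 0.10 without WT1, Snai2 at 0.24 without WT2, and Tango6 at -0.0070 with chromosome medians removed. The lowest values with a library left out were -0.58 for Vim, -0.47 for Tjp1 and -1.28 for Snai2, and -1.84 for Zeb2, which was called down there (without WT2, edgeR adjusted p = 0.0303). The number of the 10 genes called up lay between 1 and 4, and called down between 0 and 2, on leaving out single libraries, against 3 and 1. With no count filter, with the replicate block and on log2(FPKM + 1) or log2(FPKM + 0.1), 2 were called down. List genes called numbered 7 to 24 up and 4 to 14 down with a library left out, against 13 and 9, and 14 down without a count filter. Over all genes, 826 to 3571 were called up and 821 to 3384 down with a library left out, against 1999 and 1946. The genotype left with a lone library was then assumed to vary like the other. The log2 difference of the Cdh1 to Cdh2 ratio lay between -0.30 and 0.49 with a library left out and was -0.52 with chromosome medians removed, and that of Cldn6 to Cldn7 lay between 0.64 and 1.13 and was 1.48. The cause of these shifts was not tested.

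The labels number the libraries 1 and 2 in both genotypes, but nothing ties equal numbers together. The differences between replicates 1 and 2 correlated at 0.33 between the genotypes over 18157 genes. With the replicate block, 3128 genes were called up and 2994 down, 20 and 14 of the list genes, and 4 and 2 of the 10 genes, where Cldn7 (edgeR adjusted p = 0.00667) and Snai1 (edgeR adjusted p = 0.0179) joined.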

Other observations

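Markers of other lineages were read in both genotypes, except the neural progenitor marker Fabp7. It had 0 reads in WT1 and WT2 and 5 and 3 reads in KO1 and KO2. The 8 mesoderm markers summed to 12.9 to 19.1 CPM in WT cells and 21.3 to 23.1 CPM in Npac KO cells, and 6 of them were higher in both KO libraries than in both WT libraries, beside 33.2% of all tested genes. Of these, 1 was called up: Gsc, the goosecoid homeobox gene, with 1 and 7 reads in WT cells and 29 and 42 reads in Npac KO cells (log2 fold change 3.12, edgeR adjusted p = 0.0239). It was at 2.37 without WT1 and 4.88 without WT2, and was not called without KO2 (2.94, edgeR adjusted p = 0.124). The 8 primitive endoderm markers summed to 39.8 to 39.9 CPM in WT cells and 27.2 to 35.5 CPM in Npac KO cells. Of the 7 tested, 1 was called down, Sox7, beside 10.7% of all tested genes. Sox7 had 273 and 162 reads, or 17.9 and 9.27 CPM, in WT cells and 4 and 16 reads, or 0.257 and 0.924 CPM, in Npac KO cells. Its log2 fold change was -4.48 (edgeR adjusted p = 0.00434), or -3.87 without KO1 and -5.66 without KO2. In 3 of the 7, Gata4 (0.48), Gata6 (0.94) and Pdgfra (0.77), both KO libraries lay above both WT libraries, without a call. In 2 they lay below, Sox7 and Dab2 (-0.71). Over all tested genes, both KO libraries lay above both WT libraries in 33.2% and below them in 32.5%. The 8 neural progenitor markers summed to 83.7 to 97.2 CPM in WT cells and 44.3 to 53.6 CPM in Npac KO cells, with 2 of the 4 tested called down, beside 10.7% of all tested genes. These were Ncam1, which is also in the mesenchymal list, and Sox1, at a log2 fold change of -2.34 (edgeR adjusted p = 0.00936; -1.75 without WT1). The 3 marker genes Gsc, Sox7 and Sox1 were chosen after their values were seen, and the part of these markers in the changes of the adhesion genes was not tested.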
